A study of Arabidopsis thaliana with 8 samples.

Results

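The comparison set the 2 arrays of control shoots against the 2 arrays of control roots of Arabidopsis thaliana seedlings, 4 of the 8 arrays of the series, and describes which transcripts distinguish the organs of a 10-day seedling. The tested members were the probe sets, other than array controls, with a signal of 100 or more on at least 2 of these 4 arrays, which kept 15333 of 22746. All plants were of ecotype WS with no transgene or mutation named, stood upright on Murashige and Skoog (MS) medium at 0.5 strength, at 22 °C with 16 h light and 8 h dark, and were separated into shoot and root at day 10. The series has 4 groups of 2 arrays, shoots and roots on 40 µM selenate and control shoots and control roots without added selenate. The selenate groups enter the fit's estimate of spread, are described as further arrays of each organ, and are set against control medium for the organ difference. Whether the replicate arrays of a group stem from separate cultures is not stated, and the p-values cover the spread between these arrays alone, which may be technical. The shoot samples are placed by title and source; their description field mentions roots.

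A seedling shoot is mostly cotyledon and young leaf, whose chloroplasts capture light, fix carbon dioxide and export sucrose. The root has non-green plastids, takes up water and ions through hair-bearing epidermis, seals its inner tissues with lignin and suberin, and lives on imported sugar. Organ identity is commonly read from chloroplast, stomatal and leaf-polarity genes in the shoot, and from root hair, cell wall and root-tip genes in the root. In whole organs, a lower signal from fewer cells of a type and one from less RNA per cell cannot be told apart.

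The signals followed the titles. Of the green-tissue markers, the 11 nuclear genes that could be matched (members of the LHCB, PSA and PSB families with RCA, PRK, SBPASE and CaS) summed to signals of 205285 and 204208 on the shoot arrays, against 5068 and 4483 on the root arrays, and all 11 were higher in shoots. The 3 root markers matched, PYK10, EXPA7 and EXPA18, summed to 5847 and 9477 in shoots, against 19595 and 17806 in roots, and all 3 were lower in shoots. The seed oil-body gene OLEO3 had signals of 38.4 and 35.5 in shoots, against 80.5 and 66.5 in roots, below the limit of 100 on every array, and no pollen or flower marker could be matched.

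Array quality differed between the organs. A signal of 100 or more was reached by 13224 and 13441 probe sets on the shoot arrays, against 14147 and 14437 on the root arrays. The ratio of 3' to 5' signal of the GAPDH control probe sets, which increases as RNA is degraded, was 2.03 and 10.4 in shoots, against 0.868 and 0.783 in roots. The same ratio was 21.2 and 55.9 in shoots, against 9.07 and 5.42 in roots for actin, and 4.38 and 4.88 in shoots, against 2.74 and 2.12 in roots for ubiquitin, so it was above 1 in roots too for both. Values of the replicate arrays differed with a standard deviation of 0.51 (log2) in shoots and 0.26 in roots. RNA quality and organ cannot be told apart in this comparison, and its part in any single difference was not tested. Precision is limited by the number of arrays.

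Of all tested probe sets 64.7% differed between the organs. In control shoots 4042 probe sets (26.4%) were higher and 5884 (38.4%) were lower than in control roots, at an adjusted p under 0.05 (limma, Benjamini-Hochberg adjustment over all probe sets tested). These are the calls meant below by higher and lower in shoots. Regardless of the test, both shoot arrays lay above both root arrays for 33.7% of probe sets and below them for 48.0%. Differences are given on the log2(signal + 25) scale as shoots minus roots, which understates the fold of weak transcripts. At least 4-fold differences were found for 1491 probe sets higher in shoots (9.72%) and 1648 lower (10.7%), and at least 16-fold for 377 higher and 328 lower. Under 2-fold differences made up 1288 of the higher and 1996 of the lower calls. The extremes were 8.05 and -8.19, and the median over all tested probe sets was -0.21, of which -0.13 was a shift between the arrays' own medians. After median centring the calls were 4559 higher and 5226 lower, so that 46.6% of calls were higher in shoots, against 40.7% without it; this split depends on how the arrays are scaled.

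**Figure D1:**
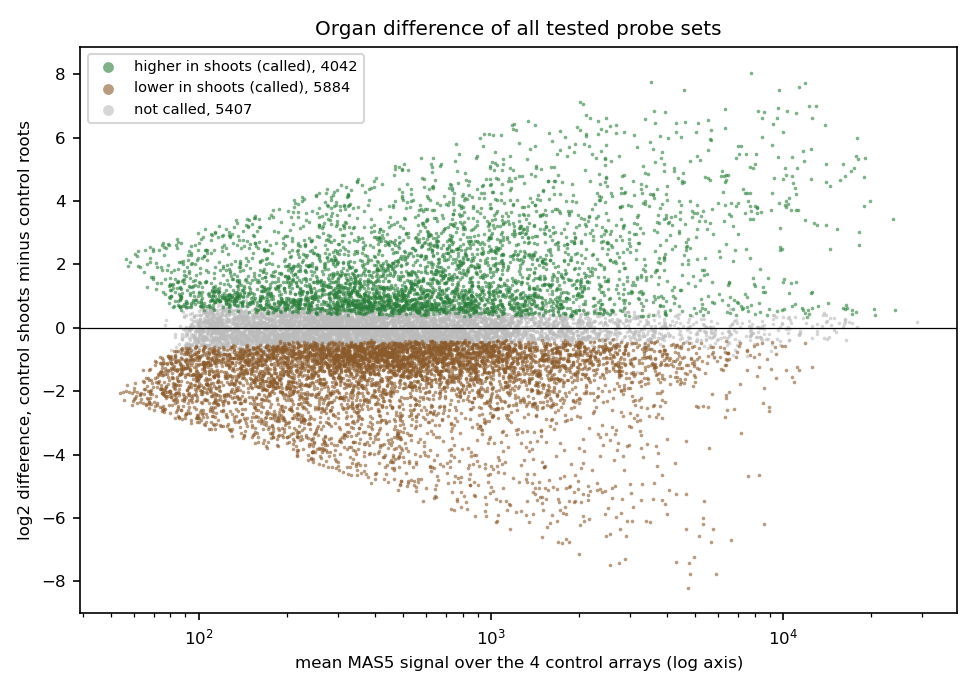
Log2 difference between control shoots and control roots (vertical axis, shoots minus roots) against mean MAS5 signal over the 4 control arrays (horizontal log axis), one point per probe set. The 4042 probe sets higher in shoots lie above 0 and the 5884 lower in shoots lie below it; the 5407 probe sets not called lie around 0 at all signals.

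A mean signal of at least 10000 was reached by 233 probe sets in shoots and 105 in roots, 54 of them in both. The 100 strongest probe sets held 13.5% and 14.2% of all signal on the shoot arrays, against 9.34% and 8.85% on the root arrays.

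On selenate medium the same contrast was made on the other 4 arrays. They share the fit's estimate of spread with the control arrays, and deviations of same-numbered arrays from their group means, across probe sets, correlated at -0.50 between selenate and control shoots and at 0.36 between selenate and control roots. Whether the arrays of both media are independent was not tested. On selenate 3967 probe sets (25.9%) were higher and 6024 (39.3%) lower in shoots. Of those higher in control shoots, 3404 (84.2%) were called higher again and 44 were called lower. Of those lower in control shoots, 5054 (85.9%) were called lower again and 25 were called higher. Among differences of at least 4-fold, 98.7% of the higher and 98.9% of the lower ones were called in the same direction on selenate.

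Named genes were gathered in 42 lists by function, in which 512 of 747 listed genes were tested. Some lists share genes, so their counts are not independent. For example, EXPA7 and EXPA18 are in the root hair and expansin lists, and GH9C1 is in the root hair and GH9 endoglucanase lists. A gene below 100 in both organs was not tested. For one that passed through a single organ, the filter itself put both arrays of that organ above both of the other. The counts below therefore describe the tested genes, and the medians are set beside that of all 8215 genes with a probe set of their own, -0.23. Among those 8215 genes 24.9% were higher and 38.6% lower in shoots. Calls in both directions were found in 30 of the 42 lists, so they do not set a list apart. Many genes below were named for large differences on these same arrays, so their p-values are not separate evidence.

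**Figure D2:**
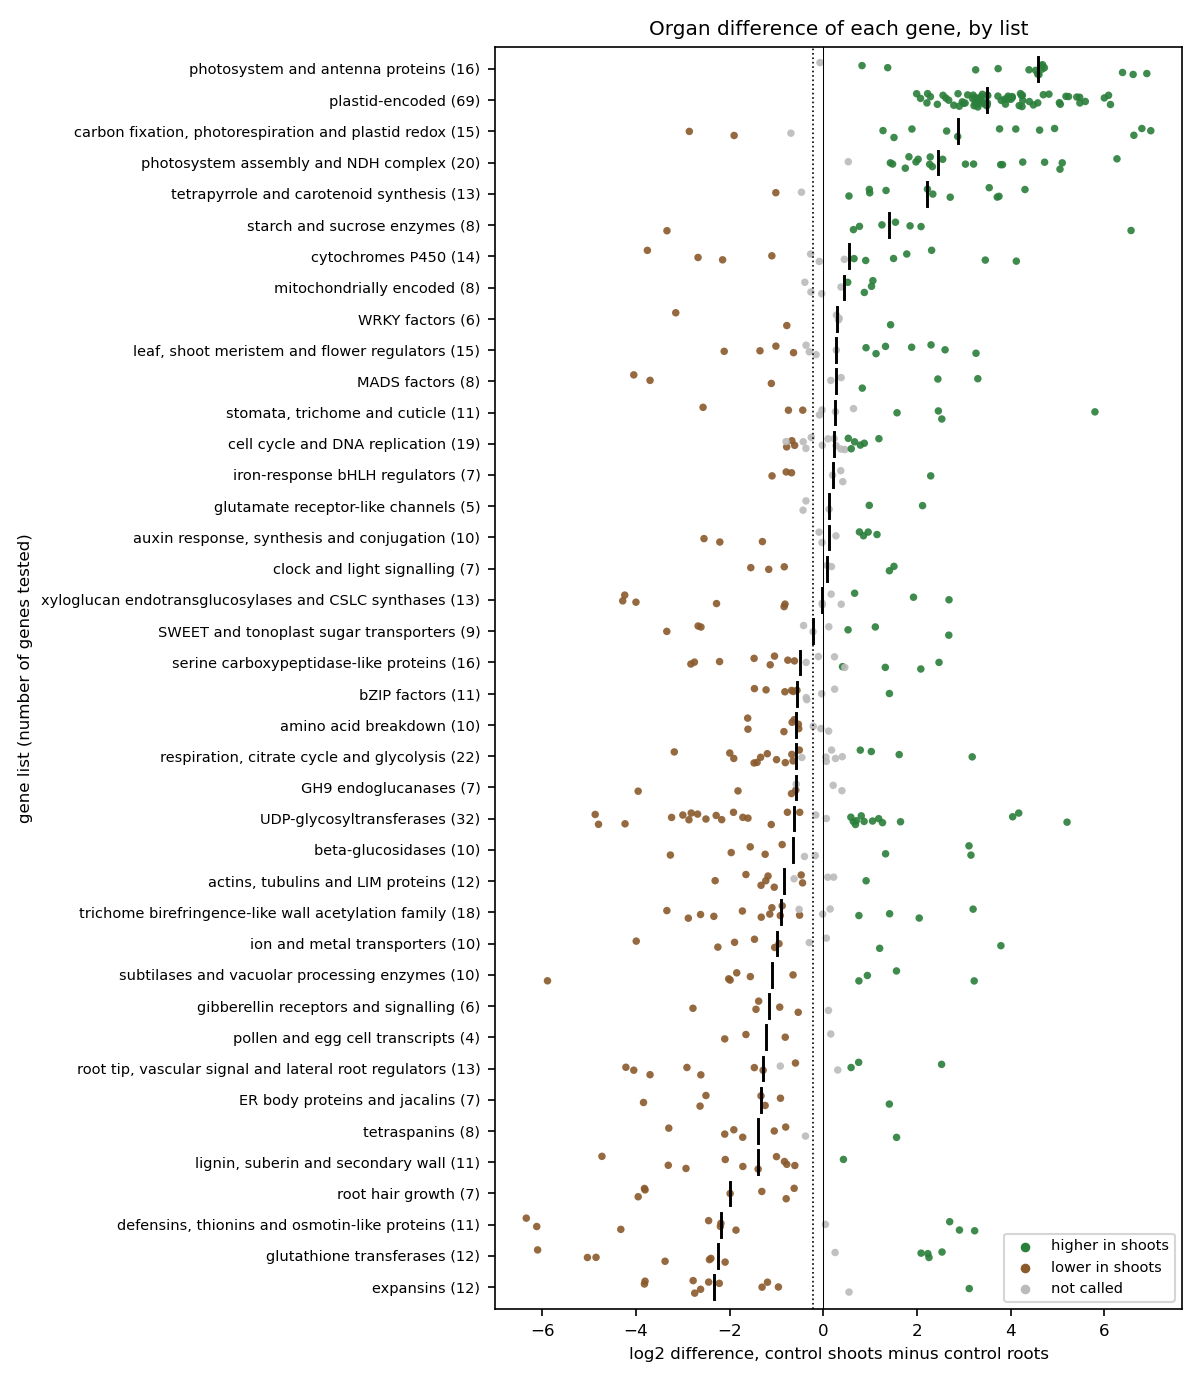
Log2 difference (shoots minus roots, control medium) of each tested gene in the lists with at least 4 tested genes, green where higher in shoots, brown where lower and grey where not called. Black bars are list medians, from 4.59 for photosystem and antenna proteins to -2.34 for expansins, and the dotted line is the median of all tested probe sets, -0.21; many enzyme and regulator families hold genes on both sides.

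Genes of the photosynthetic light reactions were higher in shoots. Of 16 tested genes of the photosystem and antenna list, 15 were higher in shoots, 13 of them at least 4-fold, and 0 were lower, with a median log2 difference of 4.59. Their signals summed to 193442 and 176077 in shoots, against 6834 and 6035 in roots. CaS, a thylakoid calcium-sensing protein, had signals of 10880.1 and 14382 in shoots, against 81.8 and 76.5 in roots, a log2 difference of 6.91 ± 0.17 (SE; limma adjusted p = 1.1e-08). LHCB4.2, a minor antenna protein of photosystem II, measured 17790.5 and 15859 in shoots, against 146 and 146 in roots, a difference of 6.62 ± 0.15. Its paralogue LHCB4.1 measured 27866 and 25950.0 in shoots, against 1219 and 956 in roots, a difference of 4.61 ± 0.17. PSAE-1, a subunit of photosystem I, measured 27738 and 27530.3 in shoots, against 334 and 277 in roots, a difference of 6.39 ± 0.17. The shoot and root arrays were far apart for each of these genes. The one gene not called was ATPC2, a second gamma subunit of the plastid ATP synthase, at 282 and 355 in shoots, against 360.3 and 308 in roots (-0.07 ± 0.27); ATPC1, the main isoform of the leaf, measured 21060.0 and 26897 in shoots, against 1017 and 798 in roots.

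Assembly factors and the NDH complex, which cycles electrons around photosystem I, followed. In that list 19 of 20 tested genes were higher, 14 at least 4-fold, and 0 were lower, with a median of 2.44. PIFI, a chloroplast factor needed for NDH activity, measured 4081 and 5337 in shoots, against 46.3 and 26.6 in roots, a difference of 6.27 ± 0.21. The NDH subunits NdhS, NdhL and NdhN differed by 5.10 ± 0.19, 5.06 ± 0.39 and 4.73 ± 0.23 (log2). NdhL was the least even between shoot arrays, at 3258 and 1313 in shoots, against 38.6 and 37.4 in roots. The CRR factors, which help to build the NDH complex or edit plastid RNA, were weaker: CRR42 measured 570.1 and 266 in shoots, against 3 and 5.6 in roots, and CRR22 196 and 275 in shoots, against 49.3 and 45.5 in roots.

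Carbon fixation, photorespiration and plastid redox genes were mostly higher in shoots. Of 15 tested genes in the list, 12 were higher (9 at least 4-fold) and 2 lower, with a median of 2.87. SBPASE, a Calvin cycle bisphosphatase, had signals of 18375 and 30456 in shoots, against 181 and 142 in roots, a log2 difference of 7.0 ± 0.23 (limma adjusted p = 3.22e-08). PRK, phosphoribulokinase, which makes the carbon dioxide acceptor, measured 18567 and 15709 in shoots, against 117 and 139 in roots, a difference of 6.81 ± 0.16. RCA, Rubisco activase, measured 29563 and 36480.1 in shoots, against 1068 and 1022 in roots, and kept a root signal above 1000 on both arrays. HPR, the peroxisomal hydroxypyruvate reductase of photorespiration, measured 22578 and 27369 in shoots, against 229.5 and 221 in roots, a difference of 6.63 ± 0.15. The 2 genes lower in shoots act in redox reactions, as do some of the higher ones. MSRB3, a methionine sulfoxide reductase, measured 143 and 57.5 in shoots, against 839.7 and 821 in roots. Whether MSRB3 acts in plastids was not checked here. TY1, a plastid thioredoxin, measured 162 and 234 in shoots, against 842 and 756 in roots. The stromal ascorbate peroxidase gene SAPX was not called, at 2247 and 984 in shoots, against 2318 and 2529 in roots, while its thylakoid counterpart TAPX measured 3305 and 3117 in shoots, against 82.2 and 136 in roots.

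Pigment synthesis genes were mostly higher in shoots as well. Among 13 tested genes of tetrapyrrole and carotenoid synthesis, 11 were higher (7 at least 4-fold) and 1 lower, with a median of 2.23. PORB, a light-dependent protochlorophyllide reductase, measured 3232 and 2537 in shoots, against 125 and 116 in roots, a difference of 4.31 ± 0.26. CHLM, the methyltransferase of the chlorophyll branch, measured 7226 and 8494 in shoots, against 650.0 and 647 in roots, a difference of 3.54 ± 0.15, and CHLI2, a subunit of magnesium chelatase, 870.0 and 723 in shoots, against 19.3 and 58.1 in roots. NOL, a chlorophyll b reductase, measured 1203 and 1171 in shoots, against 51.4 and 86.3 in roots. HEMA2, a glutamyl-tRNA reductase, was not called at 161 and 262 in shoots, against 277 and 313 in roots (-0.47 ± 0.26), though at -0.78 it was called lower without shoot control 2, and hemb2, a second copy of the porphobilinogen synthase gene, was lower at 33.2 and 73.9 in shoots, against 137 and 119.9 in roots. HEMB1, the first copy, measured 4938 and 4174 in shoots, against 1026 and 881 in roots. The call of hemb2 was lost without root control 1 or shoot control 1 and after quantile normalization.

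Every tested plastid-encoded gene was higher in shoots, 69 of 69, with 68 at least 4-fold. Plastid genes code for core subunits of the photosystems, the cytochrome b6f complex, ATP synthase and NDH, and for the plastid's own ribosome and RNA polymerase. Their median log2 difference was 3.50 and the range was 1.99 for accD, a subunit of acetyl-CoA carboxylase, to 6.13 for ndhJ, and all 69 were called higher in shoots on selenate as well. They made up 2.83% and 3.75% of all signal on the shoot arrays, against 0.267% and 0.301% on the root arrays. These are shares of array signal, and how they relate to amounts of plastid RNA was not tested. The 10 NDH genes had the highest median of the groups by function, 5.12, followed by photosystem I at 4.25 (5 genes) and photosystem II at 4.03 (15 genes). Ribosomal protein genes and ATP synthase genes lay at 3.28 (15 genes) and 3.27 (6 genes), and no test was made between these groups. Signals of ndhJ were 2511 and 3764 in shoots, against 6.9 and 36 in roots, and psbB, the CP47 antenna of photosystem II, 5707 and 10267 in shoots, against 84.6 and 106 in roots. The ATP synthase gene atpE had high signals in both organs, 29131 and 36029 in shoots, against 4099 and 3800.5 in roots, a difference of 3.03 ± 0.17.

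**Figure D3:**
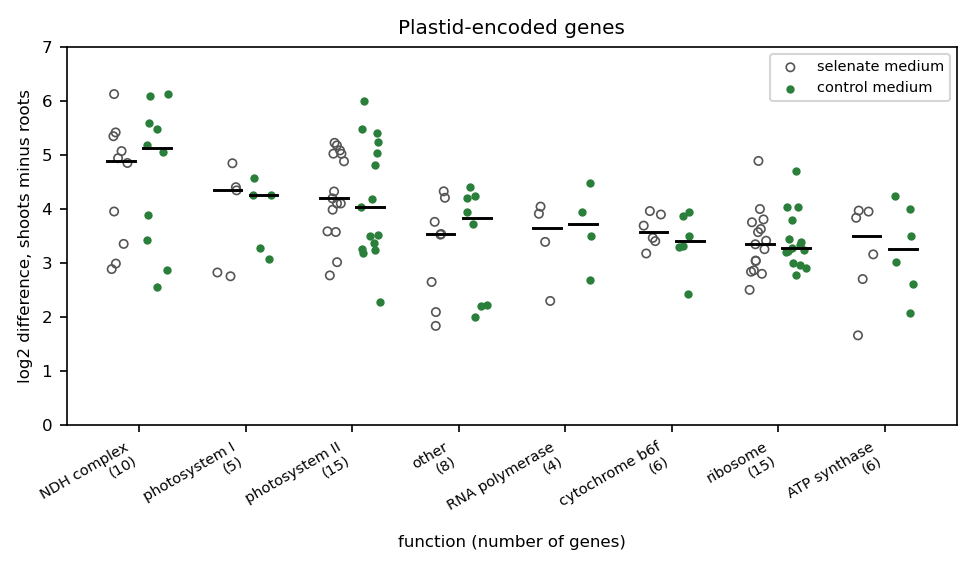
Log2 difference (shoots minus roots) of the 69 plastid-encoded genes by function, with open points for selenate medium and filled points for control medium; horizontal bars are medians. All points lie above 0, and on control medium they run from 1.99 for accD to 6.13 for ndhJ.

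Mitochondrially encoded genes differed far less on control medium, where 8 of 16 listed genes were tested. Of these 8 genes 4 were higher, 0 were lower and the median was 0.45. On selenate 5 of the 8 were higher and 1 was lower, with a median of 1.25. In 0 of the 8 was the difference between media itself called. On control medium the complex I gene nad4 measured 568 and 969 in shoots, against 377 and 312 in roots, a difference of 1.06 ± 0.31. The gene cox1, a core subunit of cytochrome c oxidase, measured 460.2 and 535 in shoots, against 278 and 241 in roots, a difference of 0.88 ± 0.20. Without shoot control 2, the array with the GAPDH ratio of 10.4, 1 of the 8 was higher and 1 was lower; without either root array 2 were higher.

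Genes of sugar metabolism and transport lay on both sides. Of 8 tested starch and sucrose genes, 7 were higher and 1 was lower. ATSPS4F, a sucrose phosphate synthase, was nearly restricted to shoots, at 5255 and 8162 in shoots, against 47.2 and 40.9 in roots, a difference of 6.57 ± 0.21. SBE2.2, a starch branching enzyme, measured 1814 and 1979.8 in shoots, against 454 and 400.1 in roots, and F2KP, which makes and breaks a regulator of sucrose synthesis, 2958 and 3106 in shoots, against 884 and 761 in roots. The 1 lower gene was cwINV6, annotated as a cell wall invertase, at 40.3 and 57.5 in shoots, against 669.6 and 769 in roots, a difference of -3.34 ± 0.25. Of 9 tested SWEET and tonoplast sugar transporter genes, 3 were higher, 3 lower and 3 not called. SWEET2 differed by 2.68 ± 0.30 and SWEET11, which exports sucrose from leaf phloem parenchyma, by 0.53 ± 0.14 at high signals in both organs, 5064 and 5574 in shoots, against 3587 and 3761 in roots. TMT1, a vacuolar sugar importer, measured 336 and 466 in shoots, against 4112 and 4381 in roots, a difference of -3.34 ± 0.21. SWEET16, a vacuolar SWEET, differed by -2.67 ± 0.22 and SWEET3 by -2.61 ± 0.31. Without root control 1, 1 of the 9 was higher in shoots, SWEET2, and SWEET1 and SWEET11 were not called.

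STOMAGEN, SPCH and FMA, which act in stomatal development, were higher in shoots, while the wider epidermal list was mixed. STOMAGEN, a peptide made in leaf mesophyll that promotes stomata, measured 1355 and 1686 in shoots, against 1.3 and 3.8 in roots, a difference of 5.80 ± 0.19. SPCH, the factor that starts the stomatal lineage, measured 163 and 136 in shoots, against 2.6 and 7.7 in roots. FMA, which finishes it, measured 252 and 349.5 in shoots, against 39.3 and 28.5 in roots. SIM, a cell cycle inhibitor known from trichome cells, was lower in shoots at 248 and 322 in shoots, against 1881 and 1721 in roots, a difference of -2.57 ± 0.21. The list of stomata, trichome and cuticle genes held 4 higher, 3 lower and 4 not called of 11 tested, with a median of 0.26.

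Among 15 tested leaf, shoot meristem and flower regulators 7 were higher, 4 lower and 4 not called. YAB3, a factor of the lower leaf side, measured 572 and 496 in shoots, against 38.8 and 28 in roots, a difference of 3.26 ± 0.22. NGA1, which shapes leaf margins, measured 197 and 306 in shoots, against 17 and 22.4 in roots, and SNZ, a repressor of flowering, 206 and 140.5 in shoots, against 20 and 10 in roots. In the other direction LEP, an AP2-type factor, measured 79.9 and 149.5 in shoots, against 563 and 560.0 in roots, a difference of -2.12 ± 0.25, and SPT, a bHLH factor of carpels and seedlings, 92 and 117 in shoots, against 213 and 259 in roots. Without root control 2 the number lower was 2 and not 4. Clock and light genes divided as 2 higher, 3 lower and 2 not called of 7. HYH, the bZIP partner of HY5, measured 551 and 471 in shoots, against 173 and 179 in roots, a difference of 1.41 ± 0.17, while GI, a clock protein, was lower at 293 and 411 in shoots, against 722 and 911 in roots, a difference of -1.17 ± 0.20. The time of day at harvest is not given in the labels.

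All 7 tested root hair genes were lower in shoots, 3 of them at least 4-fold, with a median of -1.99. GH9C1, a cellulase of root hairs, measured 31.5 and 43.6 in shoots, against 963 and 918 in roots, a difference of -3.95 ± 0.21 (limma adjusted p = 3.48e-07). EXPA7 and EXPA18, expansins that loosen the wall of growing hairs, measured 16.4 and 8.3 in shoots, against 533 and 459.5 in roots for EXPA7 and 59.6 and 3.3 in shoots, against 735 and 604 in roots for EXPA18. The shoot arrays of EXPA18 differed widely, and its standard error was 0.47. FER, a receptor kinase used in many tissues, had signals of 1141 and 1144 in shoots, against 2809.9 and 2944 in roots, a difference of -1.31 ± 0.16.

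Of 13 tested root-tip, vascular signal and lateral root regulators, 8 were lower (5 at least 4-fold), 3 higher and 2 not called. UPB1, a bHLH factor at the transition from division to elongation in the root, measured 23 and 35.9 in shoots, against 1055 and 910.3 in roots, a difference of -4.22 ± 0.20. AGL21, a MADS factor of the root, measured 1.9 and 14.3 in shoots, against 544 and 484 in roots, and AGL42, another, 1.3 and 41.7 in shoots, against 527 and 513 in roots. CR4, a receptor kinase of root cap and epidermis, went the other way, at 198 and 334 in shoots, against 4.7 and 56.3 in roots, a difference of 2.53 ± 0.43. CLE41, a peptide precursor of the phloem, was higher by 0.76 ± 0.21, and LPR2 by 0.59 ± 0.15; CLE41 was not called without root control 2. LHW, a bHLH factor of vascular identity, was not called, at 592 and 1081 in shoots, against 651 and 632 in roots, but was higher by 0.73 without shoot control 1.

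Cell wall genes were mostly lower in shoots. Of 11 tested genes of lignin, suberin and secondary wall synthesis 10 were lower and 1 was higher. FACT, a caffeoyl transferase of suberin-associated root waxes, measured 28.9 and 36.7 in shoots, against 1596 and 1416 in roots, a difference of -4.73 ± 0.17. CCR2, a lignin enzyme, measured 42.7 and 3.1 in shoots, against 444 and 375 in roots, and Prx37, a class III peroxidase, 174 and 144 in shoots, against 1376 and 1374 in roots. PRXR1, another class III peroxidase, was abundant in both organs, at 18098 and 21626 in shoots, against 14576 and 14766 in roots, with a difference of 0.43 ± 0.14 that became -0.29 after quantile normalization and was not called without either root array or without shoot control 2. Expansins held 10 lower, 1 higher and 1 not called of 12 tested, with a median of -2.34. EXPB3 measured 627 and 364 in shoots, against 3056 and 3862 in roots, a difference of -2.78 ± 0.26, and EXPA8 was the exception, at 2738 and 2572 in shoots, against 241 and 332 in roots, a difference of 3.12 ± 0.19.

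Enzymes that cut and rejoin xyloglucan spanned both organs. XTH19, XTH21 and XTH18 differed by -4.28 ± 0.27, -4.24 ± 0.25 and -4.00 ± 0.25, while XTH32 measured 2256 and 2428 in shoots, against 339 and 346 in roots and EXGT-A3 2640.5 and 2639 in shoots, against 719 and 635 in roots. With the CSLC synthases of the xyloglucan backbone the list had 3 higher, 6 lower and 4 not called of 13. Its median was -0.02, and 0.10 after median centring or 0.11 after quantile normalization, so it has no settled direction. GH9 endoglucanases had 4 lower and 0 higher of 7 tested, and 1 higher without shoot control 1. In the trichome birefringence-like family, which acetylates wall polymers, 11 of 18 were lower and 4 higher: TBL39 measured 146 and 148 in shoots, against 1766 and 1669 in roots, a difference of -3.34 ± 0.17, and TBL45 1908 and 2457 in shoots, against 203 and 224 in roots, a difference of 3.20 ± 0.23.

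Transporters of ions, metals and related solutes had 6 lower, 2 higher and 2 not called of 10 tested. OCT1, an organic cation transporter, measured 4.4 and 2.1 in shoots, against 493 and 367 in roots, a difference of -4.00 ± 0.25. AZG1, a purine transporter, measured 96.3 and 89.5 in shoots, against 388 and 440.1 in roots, and CHX16, a cation exchanger, 7.9 and 65.6 in shoots, against 254 and 218 in roots. CHX20, a cation exchanger of guard cells, had the largest difference in the other direction, at 488 and 513 in shoots, against 6.2 and 21 in roots, a difference of 3.79 ± 0.24. GTR1, a glucosinolate transporter, differed by 1.20 ± 0.17. GLR2.7 and GLR3.3, glutamate receptor-like channels, were higher by 2.12 ± 0.36 and 0.98 ± 0.22, and 3 of the 5 tested channels were not called. Of 7 bHLH genes of iron response 1 was higher, BHLH101 by 2.30 ± 0.34, and 3 were lower, PYE by -1.09 ± 0.27, bHLH104 by -0.79 ± 0.19 and bHLH115 by -0.68 ± 0.16. Without shoot control 1 the number higher was 3.

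Genes of the endoplasmic-reticulum bodies, defence stores of seedlings, were mostly lower in shoots. PYK10, the beta-glucosidase of these bodies, measured 5771 and 9465 in shoots, against 18328 and 16743 in roots, a difference of -1.24 ± 0.22, so it was abundant in both organs. NAI2, which builds these bodies, measured 291 and 371 in shoots, against 5678 and 4486 in roots, a difference of -3.84 ± 0.19. JAL34 and JAL33, jacalin lectins that associate with PYK10, differed by -2.51 ± 0.16 and -2.63 ± 0.31, and JAL34 measured 2448 and 2884 in shoots, against 15605 and 14842 in roots. Of 7 tested genes 6 were lower and JAL23, at 105 and 127 in shoots, against 36.9 and 20.1 in roots, was higher. Of 10 tested beta-glucosidases 3 were higher and 5 lower, among them BGLU40 at 976 and 1567 in shoots, against 115 and 118 in roots, a difference of 3.15 ± 0.24, and BGLU15 at 166 and 208 in shoots, against 2060.5 and 1955 in roots, a difference of -3.27 ± 0.17.

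Defensins, thionins and osmotin-like genes were divided, with large differences in both directions. OSM34, an osmotin, measured 56.1 and 31.6 in shoots, against 5736 and 5238 in roots, a difference of -6.34 ± 0.19 (limma adjusted p = 2.39e-08). PDF2.5, a defensin, measured 4.3 and 6 in shoots, against 2100.0 and 2046 in roots, a difference of -6.12 ± 0.36. LCR69, another defensin-like gene, reached 3033 and 1657 in shoots, against 11324 and 9511 in roots. Higher in shoots were the thionin THI2.2, at 261 and 228 in shoots, against 10.1 and 11.5 in roots, and the jasmonate-responsive defensins PDF1.2, at 724 and 306 in shoots, against 49 and 54.4 in roots, and PDF1.2b, at 658 and 314 in shoots, against 14.2 and 41.8 in roots; the PDF1.2b probe set can bind related transcripts and is uncertain. In all 7 of 11 tested genes were lower, 3 were higher and 1 was not called. The 7 lower genes include CHI and ChiC, which are in this list but outside its named classes. The shoot arrays of both PDF1.2 genes differed by more than 2-fold.

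Detoxification enzyme families were divided by organ. Of 12 tested glutathione transferase genes 7 were lower and 4 higher, and each of these 11 differed at least 4-fold. GSTU25 measured 23.9 and 24.5 in shoots, against 3462 and 3249.9 in roots, a difference of -6.10 ± 0.33. GSTU26 and GSTU22 differed by -5.04 ± 0.20 and -4.85 ± 0.20. GSTU20 measured 8444 and 4606 in shoots, against 1304 and 1308 in roots, a difference of 2.23 ± 0.32, and GSTU16 934 and 1325 in shoots, against 214 and 136 in roots.

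UDP-glycosyltransferases, which attach sugars to hormones, phenolics and toxins, had 13 higher (3 at least 4-fold) and 17 lower (11 at least 4-fold) of 32 tested. UGT78D1, a flavonol rhamnosyltransferase, measured 1995 and 2064 in shoots, against 33.1 and 28.2 in roots, a difference of 5.21 ± 0.22. UGT88A1 and UGT76E11 differed by 4.18 ± 0.23 and 4.05 ± 0.23. UGT71C1 measured 5.9 and 23.3 in shoots, against 1048 and 1168 in roots, a difference of -4.87 ± 0.24, UGT76B1, which acts on isoleucic acid and salicylic acid, differed by -4.80 ± 0.28, and UGT72E2, which glucosylates monolignols, by -4.23 ± 0.19. Cytochromes P450, mostly of the CYP71B group, had 7 higher and 4 lower of 14: CYP71B5 measured 557 and 565 in shoots, against 8 and 9.2 in roots, a difference of 4.12 ± 0.23, and CYP71B37 53.6 and 21.2 in shoots, against 684 and 912 in roots, a difference of -3.76 ± 0.27.

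Neighbouring genes of a family could be opposite. Within the lists 33 pairs of genes lay at most 3 places apart in the RefSeq order of genes: 20 pairs (60.6%) were called in the same direction, 10 (30.3%) in opposite directions and 3 had a gene not called. Over all 7864 gene pairs as close, 21.4% had the same and 18.8% opposite calls. Pairs with both genes called were more common in the lists, so these shares are not like for like. Several pairs share a gene, as among CYP71B34 to CYP71B37, so the pairs are not independent. Probe sets of related genes can also share hybridisation. On chromosome 3 CYP71B34, CYP71B35 and CYP71B36 were higher in shoots by 0.66, 2.31 and 3.46, while CYP71B37 beside them differed by -3.76. On chromosome 1 GSTU20 was at 2.23, and GSTU22 and GSTU23 near it at -4.85 and -2.10. The defensin-like genes LCR69, PDF2.1 and LCR68 on chromosome 2 were lower together, by -2.20, -4.32 and -2.45.

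Proteases showed both directions. SBT4.12, a subtilase, measured 32.1 and 26.6 in shoots, against 3446 and 2965 in roots, a difference of -5.89 ± 0.17, and SBT1.3 1744 and 2860.2 in shoots, against 202 and 233 in roots, a difference of 3.22 ± 0.23. The vacuolar processing enzymes ALPHA-VPE, BETA-VPE and GAMMA-VPE were all lower, by -2.02 ± 0.39, -1.56 ± 0.22 and -1.85 ± 0.21. Subtilases and vacuolar processing enzymes were thus 4 higher and 6 lower of 10. Serine carboxypeptidase-like genes had 4 higher and 8 lower of 16, from scpl25 at 2.47 ± 0.18 to scpl40 at -2.83 ± 0.35. Over all genes the shares were 24.9% higher and 38.6% lower.

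Auxin genes gave 4 higher, 3 lower and 3 not called of 10: IAA29, a repressor of auxin response, was at 1.15 ± 0.28, YUC2, an auxin synthesis enzyme, at 0.96 ± 0.31, and its relative YUC6 at -2.55 ± 0.44. YUC2 was not called without either root array or without shoot control 2, and without root control 2 the number of auxin genes higher was 2. GH3.17, which conjugates auxin to glutamate, measured 476 and 479 in shoots, against 2440.1 and 2169 in roots, a difference of -2.21 ± 0.15. The 3 gibberellin receptor genes were lower in shoots, GID1B by -2.78 ± 0.18, GID1A by -1.38 ± 0.17 and GID1C by -0.93 ± 0.22, within 5 lower and 0 higher of 6 tested genes, or 3 lower without root control 2. GID1B measured 76.9 and 64.9 in shoots, against 581 and 692 in roots. ARR15, a cytokinin-induced response regulator and the 1 tested of 6 listed, measured 266 and 219 in shoots, against 68.8 and 77.6 in roots.

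Transcription factor families had no common direction. MADS factors were 3 higher, 3 lower and 2 not called of 8: AGL87 measured 314 and 217 in shoots, against 2.2 and 6 in roots, AGL24, a promoter of flowering, 126 and 155 in shoots, against 2.7 and 8.1 in roots, and AGL16 296 and 340.2 in shoots, against 684 and 744 in roots. Of 11 bZIP genes 6 were lower and HYH was higher, and 3 were lower with median centring or without either root array. WRKY genes had 1 higher, 2 lower and 3 not called of 6 tested; without shoot control 1 these were 2 higher and 1 lower, and without root control 2 there was 1 lower. WRKY6, a regulator of senescence and phosphate response, measured 80.4 and 103 in shoots, against 952 and 1067 in roots, a difference of -3.15 ± 0.21, and WRKY53, a regulator of leaf senescence, 204 and 344 in shoots, against 75.9 and 89.2 in roots.

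Cytoskeleton genes were mostly lower in shoots, 8 lower and 1 higher of 12. WLIM2a, an actin-bundling LIM protein, measured 268 and 466 in shoots, against 1859.7 and 1853 in roots, a difference of -2.31 ± 0.23, TUB1 differed by -1.33 ± 0.15 and TUA6 by -1.05 ± 0.21. TUA1 was higher by 0.91 ± 0.22. Tetraspanins, membrane scaffold proteins, had 6 lower and 1 higher of 8, with TET6 at 58.7 and 77.5 in shoots, against 979 and 804 in roots and TET10 at 548 and 502 in shoots, against 140.0 and 184 in roots. Cell cycle and replication genes were 6 higher, 3 lower and 10 not called of 19, and 0 differed 4-fold. On selenate medium 1 of the 19 was higher and 8 were lower, with a median of -0.50 on selenate, against 0.23 on control medium; in 0 of the 19 was the difference between media itself called. POLA3, of DNA polymerase alpha, was at 1.19 ± 0.26 and AUR3, an Aurora kinase, at -0.78 ± 0.27. Without root control 2 the calls in the cell cycle list were 3 higher and 0 lower, and the same numbers came out without shoot control 2; without root control 1, 1 was lower.

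Respiration and citrate cycle genes had 12 lower, 4 higher and 6 not called of 22. NDB2, an external alternative NADH dehydrogenase, measured 209.6 and 243 in shoots, against 2237 and 2264 in roots, a difference of -3.18 ± 0.16, FRO1 (FROSTBITE1), a complex I subunit, 1444 and 832 in shoots, against 4537 and 4376 in roots, and SDH2-1, a subunit of succinate dehydrogenase, 1393 and 991 in shoots, against 4779 and 4222 in roots. ACLA-2, a subunit of ATP citrate lyase, was higher at 3016 and 4061 in shoots, against 386 and 342 in roots, a difference of 3.18 ± 0.20. NDC1, an alternative dehydrogenase also found in plastids, was higher by 1.62 ± 0.21. On control medium amino acid breakdown had 7 lower and 0 higher of 10, with IVD, isovaleryl-CoA dehydrogenase, at 434 and 441 in shoots, against 1444 and 1331 in roots and ALDH6B2 at 349.9 and 467 in shoots, against 1401 and 1188 in roots. On selenate 2 of the 10 were lower and 1 higher, with a median of 0.07 on selenate, against -0.58 on control medium, and the difference between media was called for IVD alone of the 10.

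Transcripts named for pollen or egg cells were mostly below the signal limit, with 4 of 16 listed genes tested and 3 of these lower in shoots: TET12 by -2.11 ± 0.30, PLIM2b by -1.65 ± 0.16 and FBL17 by -0.81 ± 0.22. Of 9 listed seed genes, BETA-VPE and EEL, a bZIP factor of the embryo, were tested and lower in shoots; the call of EEL was lost without either root array or without shoot control 1, and that of FBL17 without root control 2.

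Some transcripts were measured in one organ and below the limit in the other. By a rule of at least 1000 on both arrays of one organ and under 100 on both of the other, 169 probe sets were restricted to shoots and 192 to roots; 79 and 102 of these match a single gene. On selenate medium 140 of the 169 and 122 of the 192 met the same rule. Besides the genes above, LTI30, a dehydrin, was among the 10 root-restricted nuclear genes of highest signal that have a symbol, at 63.3 and 39.8 in shoots, against 2644 and 2827 in roots, a difference of -5.19 ± 0.19.

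**Figure D4:**
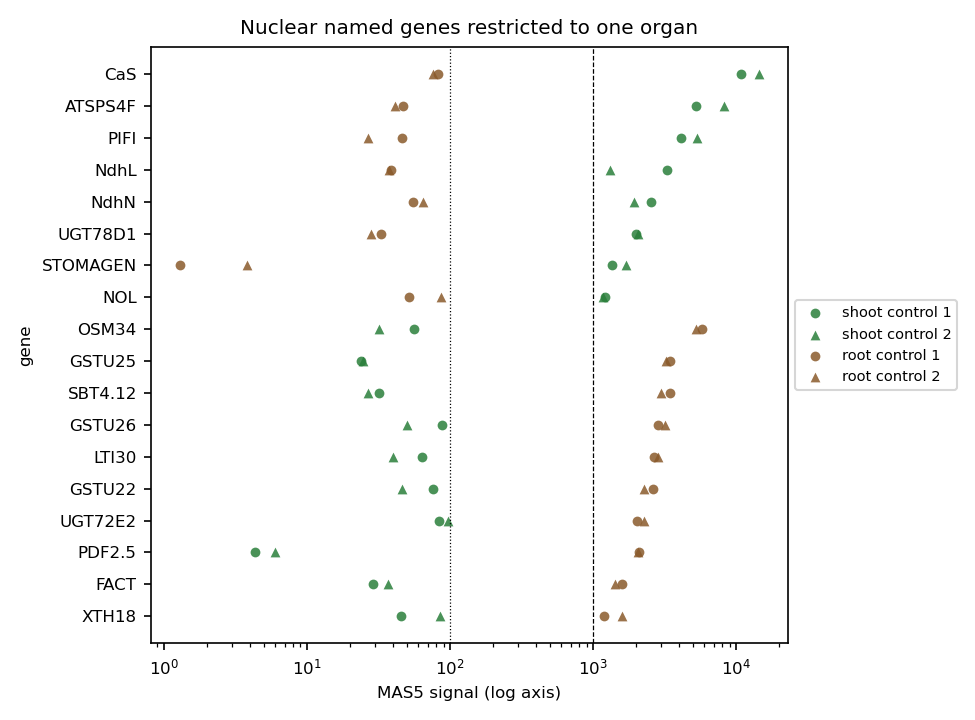
MAS5 signals (log axis) on each of the 4 control arrays, for the nuclear genes with a symbol that were restricted to one organ, the 10 of highest signal for roots and all 8 for shoots, green for shoots and brown for roots; circles are replicate 1 and triangles replicate 2. The dotted and dashed lines mark signals of 100 and 1000; the upper 8 genes are above 1000 on both shoot arrays only, and the lower 10 on both root arrays only.

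Other named genes outside the lists were also among the 15 largest differences each way. ALDH11A3, a non-phosphorylating glyceraldehyde phosphate dehydrogenase, measured 10686 and 11306 in shoots, against 79.2 and 104 in roots, a difference of 6.57 ± 0.19. AOR, an alkenal reductase of chloroplasts, measured 9555 and 12677 in shoots, against 142 and 167 in roots, and LrgB, a plastid envelope protein, 6962 and 6897 in shoots, against 86.8 and 101 in roots. Lower in shoots were GAT1_2.1, at 3.4 and 8.4 in shoots, against 898 and 863 in roots, ATC, a relative of the flowering repressor TFL1, at 5.6 and 6.1 in shoots, against 743 and 687 in roots, and MMP, a matrix metalloproteinase, at 21.1 and 3 in shoots, against 709.8 and 646 in roots.

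Named nuclear genes with a mean signal of at least 2000 numbered 130, and the 8 with the smallest differences included SAMDC, a polyamine synthesis enzyme, at 16542 and 15944 in shoots, against 16772 and 14832 in roots. Its log2 difference was 0.04 with a 95% interval of -0.29 to 0.37. TPI, triosephosphate isomerase, measured 13792 and 11858 in shoots, against 12713 and 11877 in roots and had an interval of -0.26 to 0.37, and EIF4A-2, a translation initiation helicase, one of -0.40 to 0.53. For MPPBETA, a mitochondrial processing peptidase subunit, the interval was -0.29 to 0.42, and for TUB6 it was -0.24 to 0.44. GR1, PIP and AQI complete the 8, with intervals of -0.52 to 0.48, -0.43 to 0.40 and -0.44 to 0.31. The intervals bound the difference and do not show equality. GAPC2, cytosolic glyceraldehyde phosphate dehydrogenase, measured 20142 and 15640.1 in shoots, against 14569.6 and 15068 in roots with an interval of -0.10 to 0.62. After quantile normalization SAMDC, TPI and GAPC2 were called lower in shoots, at -0.68, -0.57 and -0.47, and without shoot control 2 GAPC2 was called higher, at 0.44.

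A change of the organ difference between media was called for few transcripts, and the number depended on the arrays and the model. Transcripts without this call are not shown to be unchanged. The test of the difference between the selenate and control organ differences called 464 probe sets (3.03%), and 21 of the 512 tested list genes (4.10%). Of these 464 calls 197 were positive and 267 negative, and without root control 1 the counts were 35 and 122, without root control 2 they were 35 and 112, without shoot control 1 they were 358 and 371, and without shoot control 2 they were 438 and 427. Of the 13 named genes called, 1 remained without root control 1 and 2 remained without root control 2, WRKY53 in both cases. EXPA7 differed by -1.95 between selenate shoots and selenate roots, against -3.81 between control shoots and control roots. WRKY53 differed by -1.74 on selenate, against 1.44 on control medium, so its higher organ was the root on selenate and the shoot on control medium. For LHCB4.2 the organ difference was 8.13 on selenate, against 6.62 on control medium. Of the 200 named genes called on control medium, 181 were called in the same direction on selenate.

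**Figure D5:**
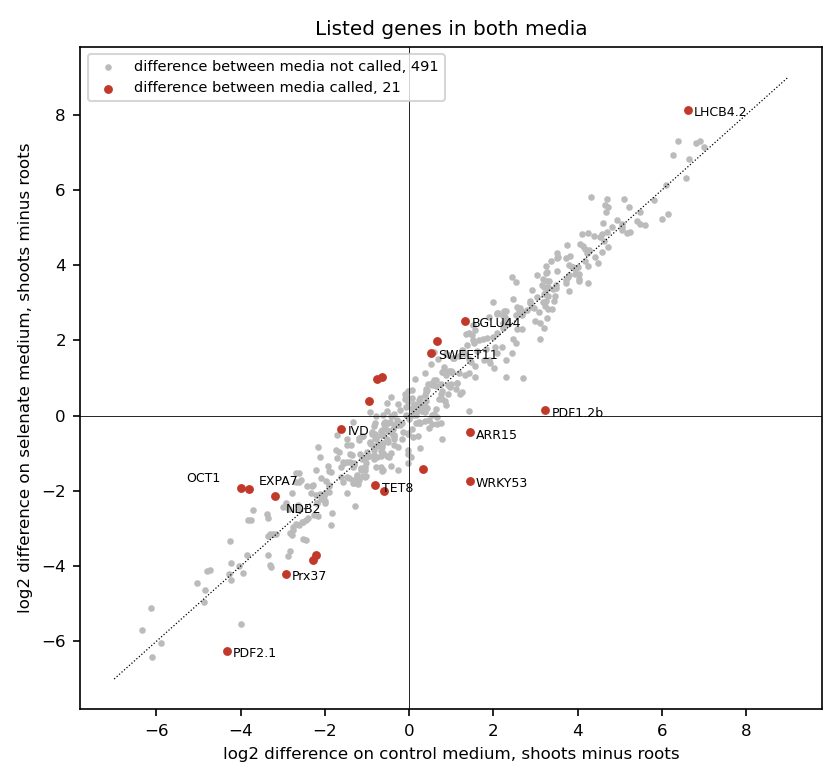
Log2 difference between shoots and roots on selenate medium (vertical axis) against that on control medium (horizontal axis) for the 512 tested list genes. Red points are the 21 whose difference between media was called, with 13 of them named, grey points are the other 491, and the dotted line marks equal values.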

How the data were processed

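Transcript levels of shoots and roots were measured on 8 Affymetrix arrays. The values the authors deposited are signal intensities, not log-transformed, from MAS5 per the submitters' processing notes (version not given). In the deposited table each array has a mean signal of 500.04 or 500.05 once the highest and lowest 2% are left out. The scaling thus assumes a like trimmed mean in both organs, and the total signal may still differ. MAS5 subtracts mismatch signal and summarises each array alone.

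The table held 22810 probe sets, 64 of them controls. Values were taken as log2(signal + 25), with the pseudocount of 25 set here. Limma 3.58.1 in R 4.3.3 was fitted with 1 mean per group on all 8 arrays, a variance trend, 4 residual and 5.05 prior degrees of freedom, and Benjamini-Hochberg adjustment over the 15333 probe sets tested. Contrasts were the organ difference on control medium, that on selenate, and the difference of both. Alternatives changed the pseudocount, filter, scaling, samples, variance model, replicate block and probe sets.

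Genes were named through the platform's annotation, with symbols updated by gene identifier from RefSeq (TAIR10.1): 13513 probe sets have 1 gene, 503 have several, and 8730 are unnamed here; 13436 were found in RefSeq. Coordinates are left out, as the sources used here give no build for the probe sets. Those ending in _s_at or _x_at can bind several transcripts.

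The comparison, the gene lists and the genes named were chosen with earlier results of these data known. Genes were named by rule: nuclear, with a symbol, both shoot arrays beyond both root arrays and called: the 15 largest each way, and per list the 3 largest called each way and the gene of highest signal, with no nuclear condition for the plastid and mitochondrial lists; also the 10 of highest signal restricted to each organ, the 8 strong genes with the smallest difference and 3 isoform genes. Genes outside it, such as ATPC1, ATPC2, CRR42, CRR22, SAPX, TAPX, HEMB1, GID1C, LCR68, GSTU23, CYP71B34, the plastid gene accD and the markers not called by rule, were chosen after their values were seen.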

Additional observations from a re-analysis of the deposited data

Results flagged for a closer look

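In 13 named genes the organ difference on selenate medium differed from that on control medium by the test of the difference itself (limma, adjusted p under 0.05). The value given is the organ difference on selenate minus that on control, in log2. Positive values were 2.06 for OCT1, an organic cation transporter, 1.86 for EXPA7, a root hair expansin, 1.51 for LHCB4.2, a photosystem II antenna protein, 1.26 for IVD, of leucine breakdown, 1.19 for BGLU44, a beta-glucosidase, 1.13 for SWEET11, a sucrose exporter, and 1.04 for NDB2, an alternative NADH dehydrogenase. Negative values were -3.17 for WRKY53, a senescence regulator, -3.10 for PDF1.2b, a defensin, -1.92 for PDF2.1, another defensin, -1.89 for ARR15, a cytokinin response regulator, -1.27 for Prx37, a peroxidase, and -1.05 for TET8, a tetraspanin. WRKY53 was called higher in shoots on control medium and lower on selenate, while ARR15, called higher in shoots on control medium, was at -0.45 on selenate and not called. LHCB4.2 had lower signals on selenate than on control medium in both organs. The share of named-list genes with such a call, 4.10%, stood beside 3.03% over all probe sets tested. With all arrays kept, 4 of the 13 calls were lost with the replicate block and 3 with a pseudocount of 5. A pseudocount of 100 and no variance trend each lost 2, and quantile normalization and no filter each lost 1. Median centring, array weights, the filter on all 8 arrays and the crossed block each lost 0. Of the 13 calls, 1 remained without root control 1 (WRKY53) and 2 without root control 2 (WRKY53 and PDF1.2b), where 1 root array stands for its group. Control arrays of both organs enter each of these values. The control shoot arrays differed more from each other than the control root arrays did. These calls nevertheless held when either control shoot array was left out, where 1 shoot array stands for its group.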

How the results depend on the processing

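The counts of 4042 higher and 5884 lower probe sets stayed within 1.5 times under the other pseudocounts, no filter, the filter on all 8 arrays, both scalings, the fit on the control arrays alone, no variance trend and array weights. With a signal limit of 500 they were 2605 and 3397 of 8226 probe sets, and with one probe set per gene and no cross-hybridising ones they were 2037 and 3156; fewer features were tested in both. Leaving out 1 control array at a time gave 3304 to 4338 higher and 4704 to 5829 lower, and without both shoot arrays of high GAPDH ratio the counts were 4073 and 6374. With the replicate block they were 3890 and 5705; deviations of same-numbered control shoots and control roots correlated at 0.0055, those of selenate and control roots at 0.36, and those of selenate and control shoots at -0.50. A block within each organ with the selenate shoot numbers crossed, added after seeing the data, gave 4710 and 6779. Of 221 named genes 4 changed sign while called in the main fit or the alternative, all with quantile normalization. These were PRXR1 (-0.29), GAPC2 (-0.47), SAMDC (-0.68) and TPI (-0.57), and the cause was not tested. GAPC2, SAMDC and TPI were not called in the main fit. Changes of sign in genes called in neither setting were not counted. Calls lost ranged from 0 to 7 over the alternatives that keep all arrays, and reached 20 without root control 2, where 1 root array stands for its group. With a signal limit of 500, selenate shoots minus selenate roots had 2626 higher and 3340 lower probe sets, against 3967 and 6024. The counts of 197 and 267 for the organ difference on selenate minus that on control became 35 to 438 and 112 to 427 when 1 control array was left out, 631 and 606 without both shoot arrays of high GAPDH ratio, 99 and 188 with the replicate block, 955 and 820 with the crossed block, and 139 and 112 with a signal limit of 500; these alternatives for selenate were added after seeing the data. Probe sets below the signal limit give no organ difference here.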
